A study of Mus musculus with 9 samples.

Results

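The 10 transcripts described here mark T cells and natural killer (NK) cells and the means by which these cells kill. They were taken by gene name from a table of 42188 genes and all 10 were found: Cd3d, Cd3e, Cd3g, Cd8a, Klrb1c, Nkg7, Prf1, Gzma, Gzmb and Ifng. Liver RNA of 3 groups of 3 mice was sequenced. MSA_ConA mice received 250 mg/kg of MSA (50 mg/ml) into the peritoneum and, 6 h later, 20 mg/kg of concanavalin A (4 mg/ml) into the tail vein. ConA mice received the same dose of concanavalin A alone, and Control mice received phosphate-buffered saline into the tail vein. Livers were taken 12 h after concanavalin A. MSA is read as mesaconate, which the study's title names. The labels give every animal as a wild-type male C57BL/6J mouse, 8 weeks old and 20 to 25 g in weight, with no transgene, and number the libraries of each group from 1 to 3.

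Concanavalin A is a plant lectin that binds sugars on T cell surface proteins and activates the cells, and in mice it brings on a hepatitis that depends on T cells. Cytotoxic T cells and NK cells store granzymes, which are proteases, and perforin, which opens the target cell's membrane to them. The CD3 chains carry the signal of the T cell receptor, and both cell types release interferon gamma, which acts on hepatocytes and macrophages through the kinases JAK1 and JAK2.

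All 10 transcripts were scarce. They held 1086 counts together over 9 libraries whose totals ran from 13294600 to 17276391 counts, so values are given as raw counts beside counts per 1000000 (CPM), scaled by the trimmed mean of M values (TMM). One count was worth 0.0515 to 0.132 CPM, and 3 counts, used as the floor for a library at 0, were worth 0.154 to 0.395 CPM. For scale, Alb, the albumin gene of hepatocytes, measured 64209 to 100083 CPM, so the labelled tissue was borne out. In such bulk tissue, fewer cells of a type and less RNA per cell cannot be told apart.

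The libraries numbered 1 stood apart from those numbered 2 and 3, and the labels of 6 libraries were not borne out. Xist, the RNA of the inactive X chromosome of female cells, was nearly absent from the 3 libraries numbered 1, at 0.0745 to 0.485 CPM, but ranged from 666 to 1130 CPM among the 6 others. Nnt, whose mitochondrial protein is lost in C57BL/6J by a partial deletion, lay at 29.8 to 34.6 CPM in number 1, against 168 to 266 CPM elsewhere. With the group in the model, edgeR's quasi-likelihood test set number 1 apart from the rest at 5593 of 14603 genes (38.3% called; 19.1% higher and 19.2% lower), by a Benjamini-Hochberg adjusted p under 0.05. None of the 4 members that could be tested was among them. Libraries are therefore named by their labels, and the members are described with the 2 kinds of library together and apart.

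The sequences just upstream of Gzmb, Gzma and Ifng are shown as examples. These genes had their highest levels in 1 library, the library labelled ConA 1, and are known targets of T cell activation. Nkg7 and Prf1 were also highest there, and their sequences are not shown. Each is the 250 bases before the RefSeq transcription start in GRCm38.p6, read 5′ to 3′ on the gene's own strand. Gzmb lies on the minus strand at chr14:56262335-56262584, Gzma on the minus strand at chr13:113100982-113101231 and Ifng on the plus strand at chr10:118440796-118441045. Capitals mark matches, on either strand, to any of 7 short motifs.
Gzmb: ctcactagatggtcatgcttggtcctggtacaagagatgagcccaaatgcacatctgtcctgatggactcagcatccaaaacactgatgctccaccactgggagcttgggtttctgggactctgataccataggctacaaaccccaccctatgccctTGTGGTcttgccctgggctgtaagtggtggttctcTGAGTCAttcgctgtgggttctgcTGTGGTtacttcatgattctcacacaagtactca
Gzma: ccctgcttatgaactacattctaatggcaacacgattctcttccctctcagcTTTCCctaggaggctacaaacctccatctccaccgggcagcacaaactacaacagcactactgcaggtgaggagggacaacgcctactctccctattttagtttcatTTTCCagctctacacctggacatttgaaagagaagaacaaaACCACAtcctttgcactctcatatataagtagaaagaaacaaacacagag
Ifng: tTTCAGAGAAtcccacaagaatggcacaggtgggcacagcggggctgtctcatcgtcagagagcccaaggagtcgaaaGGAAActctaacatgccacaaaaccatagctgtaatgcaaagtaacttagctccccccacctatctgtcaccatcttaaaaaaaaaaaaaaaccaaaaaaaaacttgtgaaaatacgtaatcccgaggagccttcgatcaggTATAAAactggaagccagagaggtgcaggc

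In Gzmb the capitals are a match to the AP-1 motif (TGANTCA) 58 to 52 bases before the start, between 2 matches to the RUNX motif (TGTGGT). Gzma has 1 RUNX match on the opposite strand, 50 to 45 bases before the start, and 2 matches to the NFAT core (GGAAA). Ifng has a STAT match (TTCNNNGAA) at the far end, 1 NFAT core and a TATA box (TATAAA) 30 to 25 bases before the start. Of 32851 RefSeq promoters of the same length, 6.75% held the AP-1 letters, 14.0% RUNX, 55.6% the NFAT core, 7.02% STAT and 12.4% the TATA box. Of the 10 members, 1 held AP-1, 5 RUNX, 8 the NFAT core, 3 STAT and 1 the TATA box. The cAMP response element core (ACGTCA) stood in 2 members and 6.47% of promoters, and the T-box core (TNACACC) in 2 members and 8.61%. Matches overlapped between STAT and the NFAT core in Nkg7. A match describes the letters only and shows no binding.

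The effectors of killing were high in 1 library of 9. Gzmb (chr14:52857646-52861050, minus strand, in the C57BL/6NJ assembly that the tables use), the granzyme that cleaves caspases in the target cell, had 0, 24 and 16 counts in the libraries labelled MSA_ConA 1, 2 and 3, 256, 10 and 8 counts in ConA 1, 2 and 3, and 7, 15 and 15 counts in Control 1, 2 and 3. In CPM these are 0, 1.33 and 0.824 in MSA_ConA, 24.8, 0.515 and 0.454 in ConA, and 0.521, 0.782 and 0.779 in Control. The highest Gzmb value was in ConA 1 and the lowest in MSA_ConA 1, both numbered 1, and ConA 2 and 3 lay below Control 2 and 3. Averaged over 3 libraries with their SD, Gzmb came to 0.717 ± 0.670 CPM with MSA_ConA, to 8.59 ± 14.0 CPM with ConA alone and to 0.694 ± 0.150 CPM for Control (n = 3 each).

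Gzma (chr13:119139748-119146900, minus strand), a granzyme that cleaves its targets at basic residues, had 1, 20 and 15 counts in MSA_ConA, 92, 12 and 15 counts in ConA, and 6, 19 and 5 counts in Control. That is 0.132, 1.11 and 0.772 CPM in MSA_ConA, 8.92, 0.618 and 0.851 CPM in ConA, and 0.447, 0.991 and 0.260 CPM in Control. Outside ConA 1 the 3 groups overlapped. Prf1 (chr10:62786830-62794028, plus strand), the gene of perforin, had 0, 0 and 11 counts in MSA_ConA, 21, 9 and 4 counts in ConA, and 4, 1 and 1 counts in Control, the last 3 being 0.298, 0.0521 and 0.0520 CPM. Nkg7 (chr7:45644739-45645915, plus strand), a granule membrane protein needed for degranulation, had 1, 12 and 13 counts in MSA_ConA, 35, 18 and 3 counts in ConA, and 10, 15 and 21 counts in Control. ConA 3 had the fewest Nkg7 counts outside MSA_ConA 1, at 0.170 CPM, so the ConA group held both its highest level and one of its lowest.

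Ifng (chr10:125584926-125589771, plus strand), the cytokine of activated T and NK cells, had 0, 0 and 1 counts in MSA_ConA, 28, 6 and 1 counts in ConA, and 7, 1 and 0 counts in Control. ConA 1 again stood highest, at 2.71 CPM, with ConA 2 at 0.309 and Control 1 at 0.521 CPM. Of the 6 libraries with at most 1 count, 3 were MSA_ConA libraries.

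The chains that define T cells showed another pattern than the granule genes. Cd3e had 16, 9 and 15 counts in MSA_ConA, 5, 28 and 8 counts in ConA, and 10, 14 and 12 counts in Control. With TMM its highest level was 2.11 CPM in MSA_ConA 1, the library with 0 counts of Gzmb, and its level in ConA 1 was 0.485 CPM. By library totals ConA 2 was the highest instead, at 1.72 counts per 1000000, against 1.203 in MSA_ConA 1. Cd3g had 2, 7 and 10 counts in MSA_ConA, 3, 9 and 8 counts in ConA, and 11, 21 and 10 counts in Control. Cd3g was lower in ConA 1, 2 and 3 (0.291, 0.464 and 0.454 CPM) than in any Control library (0.819, 1.10 and 0.520 CPM). Cd3d had 0, 1 and 12 counts in MSA_ConA, 10, 5 and 5 counts in ConA, and 3, 4 and 10 counts in Control. With TMM it was the CD3 chain with its highest level, 0.969 CPM, in ConA 1. By library totals Cd3d was highest in MSA_ConA 3 instead, at 0.781 counts per 1000000, against 0.652 in ConA 1. The 3 genes are neighbours, Cd3g at chr9:44785235-44796455 (minus strand), Cd3d at chr9:44797817-44803075 (plus) and Cd3e at chr9:44815479-44826326 (minus), with 1361 bases between Cd3g and Cd3d and 12403 bases between Cd3d and Cd3e.

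Cd8a (chr6:73740391-73745169, plus strand), the co-receptor of cytotoxic T cells, had 0, 6 and 12 counts in MSA_ConA, 4, 4 and 7 counts in ConA, and 8, 4 and 11 counts in Control. Klrb1c (chr6:135885856-135908533, minus strand), the gene of the NK1.1 receptor, had 3, 0 and 4 counts in MSA_ConA, 4, 1 and 1 counts in ConA, and 8, 2 and 0 counts in Control. Klrb1c has close relatives in its gene cluster that can share reads, so its counts are uncertain. Neither gene had its highest count in ConA 1, and the groups overlapped for both.

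**Figure D1:**
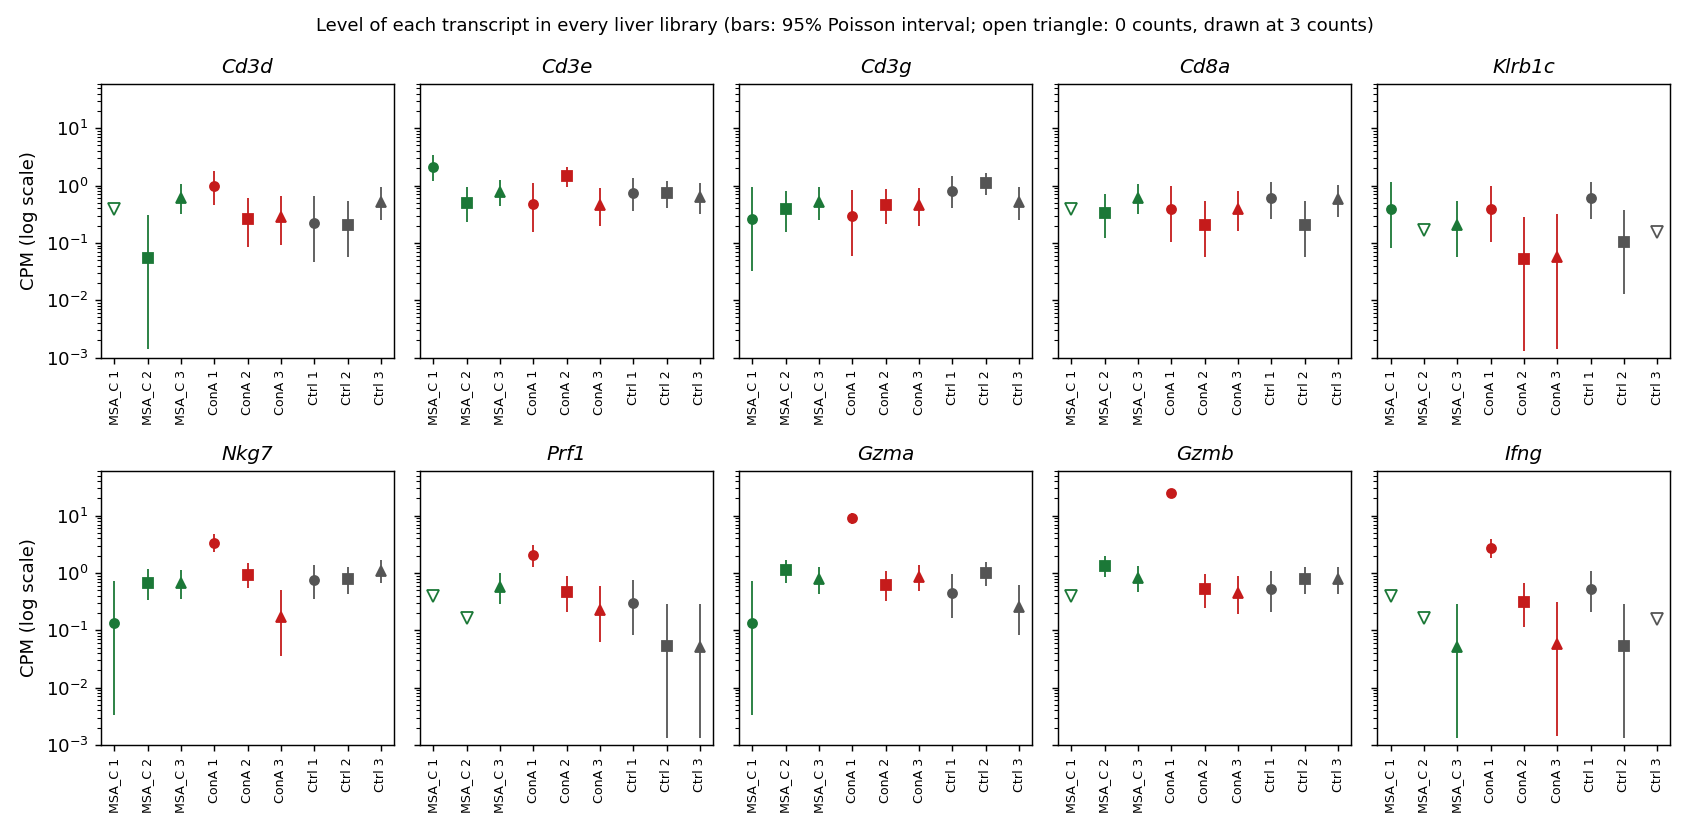
Level of each of the 10 transcripts in every library, in CPM on a log scale, with 95% Poisson intervals. Circles are libraries numbered 1, squares 2 and triangles 3. MSA_ConA (MSA_C) is green, ConA red and Control (Ctrl) grey. Open downward triangles mark 0 counts, drawn at the level of 3 counts. Gzmb reached 24.8 CPM and Gzma 8.92 CPM in ConA 1, and Cd3e measured at most 2.11 CPM in any library.

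Per length, the order of the members changed with the library. In the deposited FPKM values, ConA 1 ran from Gzmb at 17.6 through Gzma at 10.2, Nkg7 at 3.73, Ifng at 2.26 and Prf1 at 0.995 to Cd3d at 0.736, Cd3e at 0.339, Cd3g at 0.273, Cd8a at 0.200 and Klrb1c at 0.132 FPKM. In the 8 other libraries no member exceeded 1.499 FPKM, the value of Cd3e in MSA_ConA 1. The level that led was Nkg7 in Control 1, Control 3 and ConA 2, Gzma in Control 2, ConA 3, MSA_ConA 2 and MSA_ConA 3, and Cd3e in MSA_ConA 1. Over the Control libraries the mean levels were 0.943 ± 0.202 FPKM for Nkg7, 0.749 ± 0.265 for Cd3g, 0.636 ± 0.425 for Gzma, 0.483 ± 0.102 for Gzmb and 0.481 ± 0.0474 for Cd3e (SD, n = 3), and the gap between neighbours in this order was smaller than the larger of their SDs. Cd3d followed at 0.237 ± 0.130 FPKM, a gap to Cd3e larger than either SD. Below it Cd8a (0.233 ± 0.110), Ifng (0.157 ± 0.237), Klrb1c (0.0783 ± 0.107) and Prf1 (0.0647 ± 0.0689) again followed with gaps smaller than the larger SD of each pair.

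Shares of counts within a library need no scaling between libraries. Gzma, Gzmb, Prf1 and Nkg7 made up 10% of their own counts plus those of the 3 CD3 chains in MSA_ConA 1 (2 granule and 18 CD3 counts, exact 95% binomial interval 1.23 to 31.7%) and 95.7% in ConA 1 (404 granule and 18 CD3 counts, 93.3 to 97.5%). Control 1 held 52.9% (38.5 to 67.1%). The shares were 76.7% and 59.8% in MSA_ConA 2 and 3, 53.8% and 58.8% in ConA 2 and 3, and 56.2% and 56.8% in Control 2 and 3. Intervals of ConA 1 and MSA_ConA 1 overlapped with that of no other library, and MSA_ConA 2 had the next highest share.

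Within the CD3 complex, Cd3e made up 88.9% of the 18 CD3 counts in MSA_ConA 1 (65.3 to 98.6%), against 27.8% of the 18 in ConA 1 (9.69 to 53.5%) and 41.7% of the 24 in Control 1 (22.1 to 63.4%). In ConA 2 the share was 66.7% of 42 counts (50.5 to 80.4%), and the 5 other libraries held 35.9 to 52.9%. MSA_ConA 1 and ConA 1 held the highest and lowest share of all libraries, and their intervals did not overlap. Whether the shares differ by more than counting error was not tested. These intervals and all floors cover counting error only, since reads without molecular identifiers are not independent molecules.

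**Figure D2:**
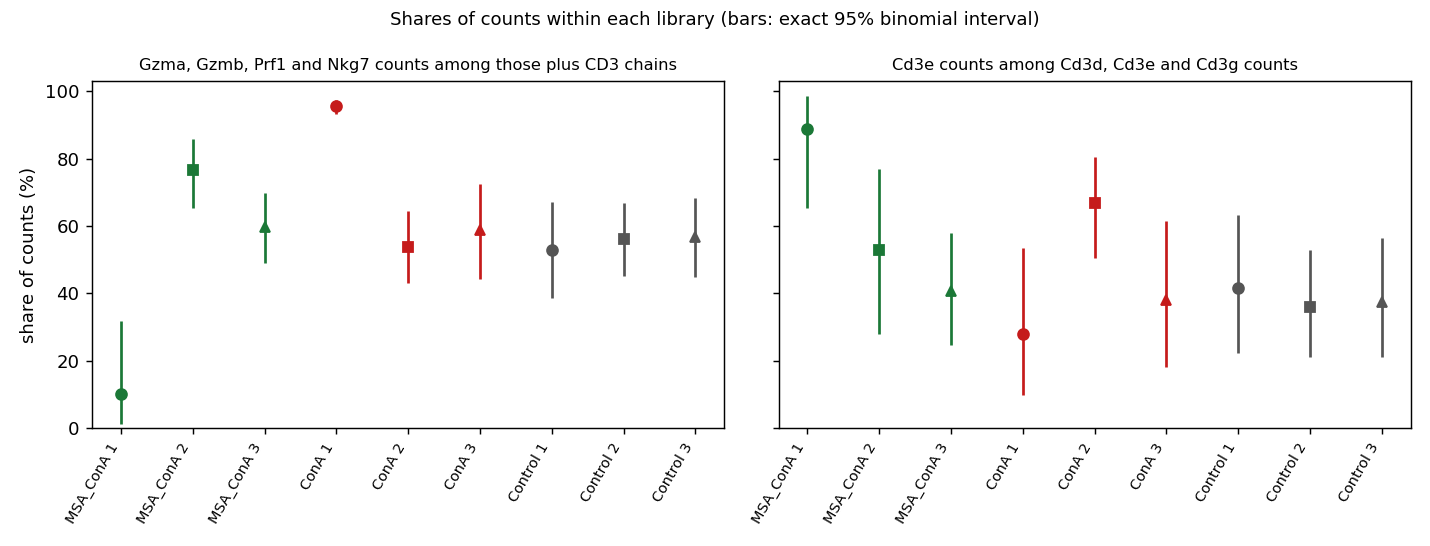
Shares of counts within each library, in percent, with exact 95% binomial intervals; green is MSA_ConA, red ConA and grey Control, and circles, squares and triangles are libraries 1, 2 and 3. On the left, the granule genes held 10% in MSA_ConA 1 and 95.7% in ConA 1. On the right, Cd3e held 88.9% of CD3 counts in MSA_ConA 1 and 27.8% in ConA 1.

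ConA was set against Control to see how these transcripts respond to the lectin. In edgeR's quasi-likelihood test on all 9 libraries, 0 of 14603 genes passed (0% called; 563 at an unadjusted p under 0.05; DESeq2 called 2 and limma-voom 0). The filter on low counts kept Gzmb, Gzma, Nkg7 and Cd3e, and left out the 6 other members. Gzmb had a log2 fold change of 3.60 (SE 1.61), Gzma 2.57 (SE 1.17), Nkg7 0.74 (SE 0.95) and Cd3e 0.20 (SE 0.72), and edgeR's adjusted p was 0.9997 for all 4. The spread between ConA libraries exceeded these differences, and 1 library set them. Without ConA 1 the log2 fold change of Gzmb was -0.52, that of Gzma 0.36 and that of Nkg7 -0.66, and without ConA 2 that of Cd3e was -0.58.

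The libraries numbered 1 differed most. Between ConA 1 and Control 1, each a single library, Gzmb was 47.6-fold higher (exact 95% interval 22.8 to 119.6, counting error only), Gzma 19.96-fold (8.83 to 55.8), Prf1 6.83-fold (2.31 to 27.4), Ifng 5.21-fold (2.22 to 14.1), Nkg7 4.56-fold (2.21 to 10.3) and Cd3d 4.34-fold (1.12 to 24.5). The ratios of Cd3e (0.651, 0.175 to 2.09), Cd8a and Klrb1c (both 0.651, 0.143 to 2.43) and Cd3g (0.355, 0.0636 to 1.34) had intervals that include 1. Scaled by library totals, a choice made after the data were seen, the interval of Cd3d included 1 (3.07, 0.791 to 17.4) and that of Cd3g did not (0.251, 0.0451 to 0.952). The other folds were smaller on that scale, at 33.7 for Gzmb, 14.1 for Gzma, 4.84 for Prf1, 3.69 for Ifng and 3.23 for Nkg7. Their intervals still excluded 1. As ratios of CPM + 1, 2 of the 10 members, Gzmb and Gzma, were at least 4-fold higher, as were 6.48% of all tested genes. At least 4-fold lower were 3.59% of tested genes. No member could be on this scale, since none exceeded 0.819 CPM (Cd3g) in Control 1. With 1 library a group there is no replicate check.

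Gzmb showed no such gap in numbers 2 and 3. It had ratios of 0.659 (0.265 to 1.57) between ConA 2 and Control 2 and 0.582 (0.214 to 1.46) between ConA 3 and Control 3. For Ifng the ratio in number 2 was 5.93 (0.719 to 273, from 6 counts against 1), near that in number 1. Single ratios whose interval excluded 1 were Prf1 (8.89, 1.23 to 389.7, from 9 counts against 1), Cd3e (1.98, 1.01 to 4.06) and Cd3g (0.423, 0.171 to 0.964) in number 2, and Gzma (3.28, 1.13 to 11.5) and Nkg7 (0.156, 0.0298 to 0.523) in number 3. In a fit on the 6 libraries numbered 2 and 3, 0 of 14851 genes passed (0% called; 1744 unadjusted; DESeq2 called 90 and limma-voom 0), and 6 members could be tested. Their log2 fold changes were -0.68 for Gzmb (SE 0.52), 0.22 for Gzma (SE 0.69), -0.75 for Nkg7 (SE 0.72), 0.48 for Cd3e (SE 0.64), -0.81 for Cd3g (SE 0.61) and -0.37 for Cd8a (SE 0.79), with adjusted p from 0.582 to 0.906 by edgeR.

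The difference between the effects was itself tested, with the split by number chosen because earlier results of these data showed number 1 apart. For the effect of ConA in number 1 minus that in numbers 2 and 3, edgeR called 4534 of 14603 genes (31.0%), 15.6% higher and 15.4% lower. Of the 4 members tested, Gzmb had a log2 difference of 6.23 (SE 0.69, adjusted p = 0.00126 by edgeR) and Gzma one of 4.07 (SE 1.12, adjusted p = 0.0312 by edgeR). Nkg7 (2.92, SE 1.20, adjusted p = 0.101 by edgeR) and Cd3e (-1.10, SE 1.22, adjusted p = 0.519 by edgeR) did not pass. This test rests on 3 residual degrees of freedom, and a lone library numbered 1 is assumed to vary like the others. Gzma missed the threshold without Control 2 (2.81, adjusted p = 0.0915 by edgeR), ConA 2 (3.84, 0.0768) or ConA 3 (4.29, 0.0655), and when a replicate block for the library number was added (3.93, adjusted p = 0.0541 by edgeR), while Nkg7 passed without ConA 2 (4.56, 0.0281). Over 14 alternatives the adjusted p lay between 1.09e-06 and 0.00823 for Gzmb, between 0.0119 and 0.0915 for Gzma and between 0.0281 and 0.230 for Nkg7.

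Cd3g was the one member of 10 whose ConA and Control libraries did not overlap, with ConA lower, a pattern of 6.64% of tested genes (5.66% lay apart with ConA higher), and the groups also stayed apart when scaled by library totals. It was too scarce to pass the filter. With no filter on low counts its log2 fold change was -0.99 (SE 0.80, adjusted p = 0.918 by edgeR), so it did not pass the test. No gene in that fit had a smaller adjusted p, although 968 of 24904 had an unadjusted p under 0.05. The adjustment gives many genes the same value, so this does not rank Cd3g first.

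**Figure D3:**
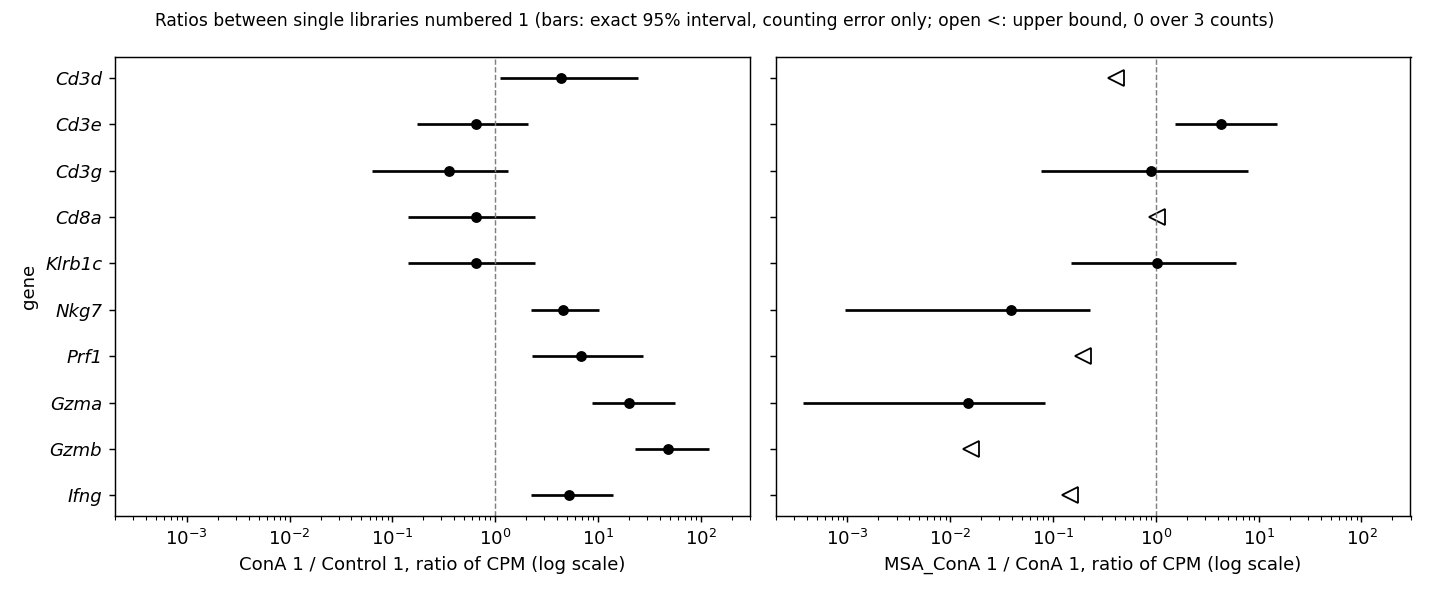
Ratios of CPM between single libraries numbered 1, on a log scale, with exact 95% intervals for counting error; open triangles pointing left are upper bounds where MSA_ConA 1 had 0 counts, taken as 3. On the left, for ConA 1 over Control 1, Gzmb lies at 47.6 and Cd3e at 0.651. On the right, for MSA_ConA 1 over ConA 1, every granule gene lies below 1 and Cd3e at 4.35.

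MSA_ConA was set against ConA to see what a dose of MSA beforehand changed. Over all 9 libraries 0 of 14603 genes passed (0% called; 248 unadjusted; DESeq2 and limma-voom called 0). Gzmb had a log2 fold change of -3.49 (SE 1.60), Gzma -2.28 (SE 1.15), Nkg7 -1.51 (SE 0.98) and Cd3e 0.44 (SE 0.73), with adjusted p of 0.99999 by edgeR. Without ConA 1 these became 0.63 for Gzmb, -0.07 for Gzma and -0.10 for Nkg7, and without MSA_ConA 1 the value of Cd3e was -0.34. Both comparisons use the same ConA libraries, so their values are not independent.

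In number 1, MSA_ConA 1 had 0 counts of Gzmb, Prf1, Ifng and Cd3d. Against a floor of 3 counts in that library, Gzmb was at least 62.8-fold lower than in ConA 1, Ifng at least 6.87-fold, Prf1 at least 5.15-fold and Cd3d at least 2.45-fold. The floor leaves out the counting error of ConA 1. Gzma and Nkg7 had 1 count each and were 67.7-fold (11.9 to 2703) and 25.8-fold (4.33 to 1046) lower. Cd3e was 4.35-fold higher (1.52 to 15.2), while Cd3g (0.906, 0.0757 to 7.91) and Klrb1c (1.02, 0.149 to 6.02) had ratios near 1 with wide intervals. For Cd8a, with 0 counts against 4, no fold can be given. As ratios of CPM + 1, Gzmb and Gzma were at least 4-fold lower, as were 4.49% of tested genes, and none was at least 4-fold higher, as were 1.98%.

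Numbers 2 and 3 went another way for Gzmb. It was 2.58-fold higher (1.19 to 6.04) in MSA_ConA 2 than in ConA 2 and 1.82-fold (0.733 to 4.90) higher in MSA_ConA 3 than in ConA 3. Of the others, Cd3e was lower in MSA_ConA 2 (ratio 0.345, 0.143 to 0.752), Nkg7 was higher in MSA_ConA 3 (3.93, 1.08 to 21.5), and Prf1 was at least 2.79-fold lower in MSA_ConA 2, with 0 counts against 9. In the fit on numbers 2 and 3, 0 of 14851 genes passed (0% called; 783 unadjusted; DESeq2 called 9 and limma-voom 0). Gzmb had a log2 fold change of 1.14 (SE 0.52, unadjusted p = 0.0603 and adjusted p = 0.929 by edgeR), and was higher by both ratios given above. The log2 fold changes of Gzma, Nkg7, Cd3e, Cd3g and Cd8a ran from -0.57 for Cd3e to 0.66 for Cd8a.

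In edgeR's test of the difference between number 1 and the other numbers in the effect of MSA_ConA against ConA, 2726 of 14603 genes passed (18.7%), 8.61% higher and 10.1% lower. Gzmb had a log2 difference of -12.77 (SE 1.15, adjusted p = 0.000986 by edgeR), a size that rests on a library at 0 counts and on the prior count, and so is no bound. Gzma had a log2 difference of -6.35 (SE 1.36, adjusted p = 0.0208 by edgeR), and Nkg7 (-4.86, SE 1.57, adjusted p = 0.0693) and Cd3e (2.68, SE 1.19, adjusted p = 0.153) did not pass. Gzma missed the threshold without ConA 2 (-6.14, adjusted p = 0.0525 by edgeR) or ConA 3 (-6.59, 0.0518). Nkg7 passed without ConA 2 (-6.53, adjusted p = 0.0287) and with no filter on low counts (-4.85, 0.0378). Over 14 alternatives the adjusted p was at most 0.00593 for Gzmb, ran from 0.00243 to 0.0525 for Gzma and from 0.0287 to 0.118 for Nkg7.

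Ifng was the one member whose MSA_ConA and ConA libraries did not overlap, lower in MSA_ConA, as were 2.54% of tested genes, while 2.33% lay apart with MSA_ConA higher. The gap rested on 1 count in MSA_ConA 3 (0.0515 CPM) against 1 count in ConA 3 (0.0567 CPM). With no filter on low counts its log2 fold change was -5.06 (SE 1.89, unadjusted p = 0.0207, adjusted p = 1 by edgeR), a size that also rests on libraries at 0.

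**Figure D4:**
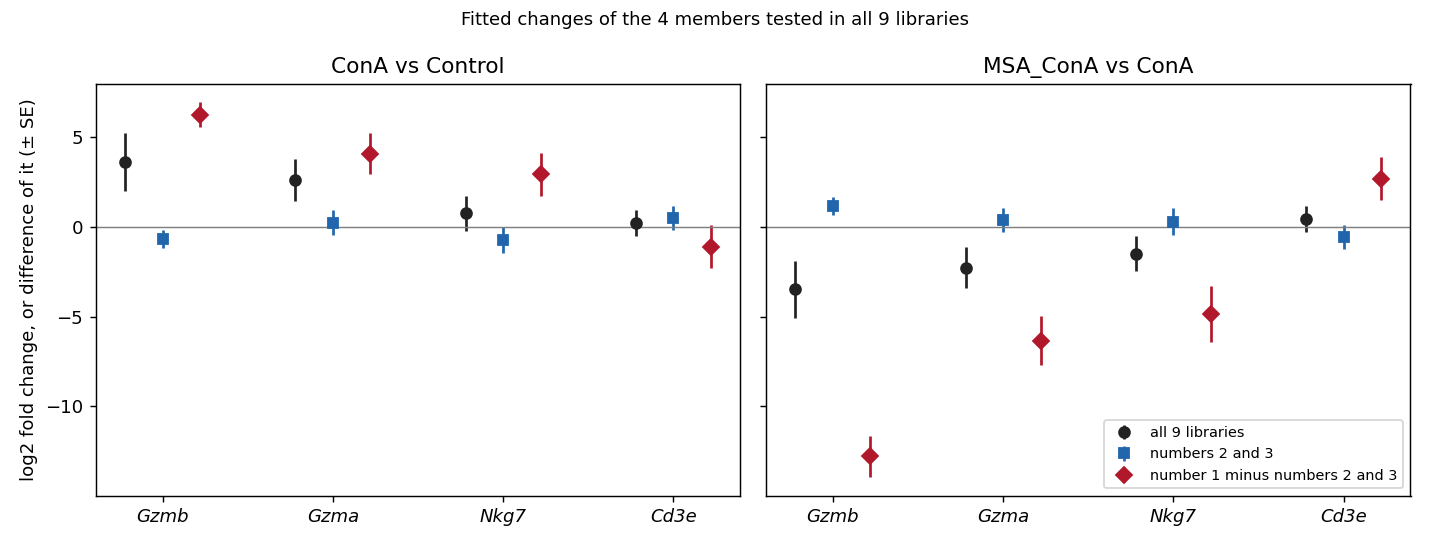
Fitted log2 fold changes with SE for the 4 members tested on all 9 libraries, ConA against Control on the left and MSA_ConA against ConA on the right. Circles use all 9 libraries, squares the libraries numbered 2 and 3, and diamonds are the effect in number 1 minus that in numbers 2 and 3. Gzmb stands at 3.60, -0.68 and 6.23 on the left and at -3.49, 1.14 and -12.77 on the right.

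Between MSA_ConA and Control, 0 of 14603 genes passed in edgeR's test (0% called; 730 unadjusted; DESeq2 called 55 and limma-voom 0). Gzmb (log2 fold change 0.11, SE 1.51), Gzma (0.29, SE 1.14), Nkg7 (-0.76, SE 0.97) and Cd3e (0.64, SE 0.73) each had SEs larger than the difference. Cd3g and Nkg7 did not overlap between these groups, both lower in MSA_ConA, as were 7.34% of tested genes, while 6.44% lay apart with MSA_ConA higher. For both genes the groups overlapped once scaled by library totals. In number 1, Cd3e was 2.83-fold higher in MSA_ConA 1 than in Control 1 with TMM (1.21 to 6.98). By library totals it was 1.70-fold higher, with an interval that includes 1 (0.726 to 4.19). Against a floor of 3 counts, Cd8a was 1.51-fold lower (0 counts against 8), and Gzmb and Ifng 1.32-fold (0 against 7 each). The floor leaves out the counting error of Control 1, so these are no bounds. By library totals the intervals of Nkg7 (0.106, 0.00245 to 0.748) and Cd3g (0.193, 0.0208 to 0.886) excluded 1. With TMM both included 1. In the fit on numbers 2 and 3, 0 of 14851 genes passed (0% called; 3598 unadjusted; DESeq2 called 1314 and limma-voom 0). There the log2 fold changes of the 6 members tested ran from -0.83 for Cd3g (SE 0.61) to 0.58 for Gzma (SE 0.68), with Gzmb at 0.46 (SE 0.49).

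Genes around the members were followed in lists of the pathway and of cell markers. In each group comparison on all 9 libraries, and on numbers 2 and 3, 0 genes of every list were called, so every call below is from edgeR's test of the difference between number 1 and numbers 2 and 3, for ConA against Control or for MSA_ConA against ConA. Over all tested genes that test called 15.6% higher and 15.4% lower for ConA, and 8.61% higher and 10.1% lower for MSA_ConA. In numbers 2 and 3 the list medians for ConA were -0.02 for interferon gamma signal, -0.01 for the granule list, 0.14 for T cell receptor signalling and -0.14 for pan-leukocyte markers, on the log2 scale. The median of all tested genes there was 0.02. NK cell genes had a median of -0.24, T cell identity 0.19 and the defining T and NK markers -0.28. Medians of other cell markers were -0.58 (B cell), -0.48 (Kupffer cell), -0.26 (sinusoidal endothelium), -0.15 (neutrophil), 0.10 (hepatocyte) and 7.65 (skeletal muscle). The remaining lists lay at -0.07 (death ligands and receptors), -0.05 (interferon gamma induction) and 0.05 (activation). In T cell receptor signalling and T cell identity most genes were not called. Of 11 tested signalling genes, 2 had a higher ConA effect in number 1, among them the kinase Lck, with a list median of 1.27 on the log2 scale against -0.09 for all tested genes. The level of Lck was 5.52 CPM in ConA 1, against 0.745 CPM in Control 1. For MSA_ConA against ConA, 2 of 11 were lower, the adaptor Lcp2 (0.790 CPM in MSA_ConA 1 and 12.02 CPM in ConA 1) and the surface glycoprotein Thy1 (0.527 and 6.30 CPM), with a median of -0.40 against -0.01 for all. Of 9 tested identity and homing genes, 1 was higher for ConA (median 0.61), near the share over all genes, and 3 were lower for MSA_ConA (median -3.19). Among the 3 was S1pr1, a receptor that guides lymphocytes out of tissues and is also made by endothelium, at 18.3 CPM in MSA_ConA 1 and 65.7 CPM in ConA 1.

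Of 5 tested NK cell genes, 1 was higher and 1 lower for ConA, and likewise for MSA_ConA, too few genes to set apart from the shares over all genes. Fcgr3, an IgG receptor also made by macrophages, measured 12.2 CPM in MSA_ConA 1, 27.7 CPM in ConA 1 and 9.75 CPM in Control 1. S1pr5, a receptor for egress of NK cells, measured 1.71, 0.291 and 4.62 CPM in the same libraries. Of the 18 NK genes in the table, 13 had 0 counts in at least 1 library.

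Of the granule genes beyond the members, the largest difference of effects among those named was that of Srgn, at 3.93 on the log2 scale, although Lamp1, a lysosome membrane protein, had the highest level. Srgn encodes the proteoglycan that packs granule proteins in many blood cells. It measured 38.3, 8.90 and 10.2 CPM in MSA_ConA, 118.6, 5.92 and 6.13 CPM in ConA, and 6.11, 4.80 and 4.68 CPM in Control, highest in ConA 1 and next in MSA_ConA 1. Serpinb9, the inhibitor of granzyme B, measured 4.48, 13.4 and 14.4 CPM in MSA_ConA, 25.3, 10.4 and 10.95 CPM in ConA, and 6.11, 6.83 and 10.4 CPM in Control. Both were called in the test of the difference for ConA, 2 of 9 tested genes (median 0.79), and with the granzyme-activating protease Ctsc they made 3 of 9 called lower for MSA_ConA (median -0.55). Of the death ligands and their receptors, 4 of 10 were higher and 1 lower for ConA (median 1.28), and 1 higher and 4 lower for MSA_ConA (median -0.82). Tnf had 0 counts in MSA_ConA 1, 151 in ConA 1 and 9 in Control 1, while Fasl, the ligand used by T cells, had 0, 1 and 3. The death receptor gene Fas measured 52.0 CPM in MSA_ConA 1, 95.6 CPM in ConA 1 and, in Control 1, 29.5 CPM. The receptor gene Tnfrsf1b measured 173.8 CPM in MSA_ConA 1, 185.6 CPM in ConA 1 and 19.1 CPM in Control 1, and was not called for MSA_ConA.

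The genes that receive interferon gamma had the highest share of calls among the pathway lists. Of 8 tested, 6 had a higher ConA effect in number 1 (median 1.96) and 6 a lower effect of MSA_ConA against ConA (median -2.54). Irf1, which interferon gamma induces and which encodes a transcription factor, measured 14.2, 37.3 and 25.9 CPM in MSA_ConA, 1746, 37.5 and 37.8 CPM in ConA, and 44.1, 47.6 and 46.9 CPM in Control. Socs1, the feedback inhibitor of JAK kinases, measured 15.7, 0.442 and 0.618 CPM in MSA_ConA, 175, 0.206 and 0.340 CPM in ConA, and 0.521, 0.574 and 0.364 CPM in Control. Irf1 was at its lowest in MSA_ConA 1, while Socs1 there stood between ConA 1 and Control 1. Of the list on interferon gamma induction, 3 of 10 were higher for ConA (median 1.44) and 3 of 10 lower for MSA_ConA (median -1.30). The list mixes inducers with Il18bp, whose protein blocks the inducer interleukin 18. Those called lower for MSA_ConA were Il18bp, Il2ra and Il2rb. Il18bp measured 7.37 CPM in MSA_ConA 1, 25.5 CPM in ConA 1 and 13.3 CPM in Control 1. Il2rb, a subunit of the interleukin 2 and 15 receptors, measured 0.527 CPM in MSA_ConA 1, 8.43 CPM in ConA 1 and 2.46 CPM in Control 1. Of 7 tested activation genes, 1 was called in each test, the chemokine Ccl5, at 2.11 CPM in MSA_ConA 1, 76.6 CPM in ConA 1 and 2.61 CPM in Control 1.

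Some markers of other cells also stood highest in ConA 1, and others did not. The 7 neutrophil markers summed to 61.9 CPM in MSA_ConA 1, 411 CPM in ConA 1 and 2.72 to 9.01 CPM in the 7 other libraries. Of the 3 that could be tested, the difference test called 2 higher for ConA and 1 lower for MSA_ConA. Pan-leukocyte markers summed to 412 CPM in ConA 1 and 112 to 157 CPM in the 8 others, and the difference test called 5 of 8 higher for ConA and 5 of 8 lower for MSA_ConA. The 7 defining T and NK markers (the CD3 chains, Cd8a, Cd247, Klrb1c and Ncr1) summed to 4.65 CPM in ConA 1 and 1.82 to 3.69 CPM in the others. Cd247, the zeta chain of the receptor, supplied 2.04 CPM in ConA 1 (21 counts), and the 6 other markers summed to 2.62 CPM there, within the 1.77 to 3.28 CPM of the other libraries. Of the 7, 3 (Cd3d, Cd8a and Ncr1) had 0 counts in MSA_ConA 1. B cell markers summed to 6.202 CPM in ConA 1 within 5.53 to 13.6 CPM elsewhere, with 0 of 7 called in either test. Kupffer cell markers (0 higher and 2 lower of 8 for ConA), sinusoidal endothelial markers (1 higher and 3 lower of 7) and hepatocyte markers (0 of 6) were called as given, and for MSA_ConA the counts were 0 of 8, 1 lower of 7 and 1 higher of 6. Skeletal muscle markers summed to 5272 CPM in MSA_ConA 3, 402 CPM in MSA_ConA 2, 121 CPM in MSA_ConA 1, 417 and 75.5 CPM in ConA 2 and 3, and at most 3.59 CPM in ConA 1 and Control, with 0 of 11 called in either test. The part of these cells in the members' levels was not tested.

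**Figure D5:**
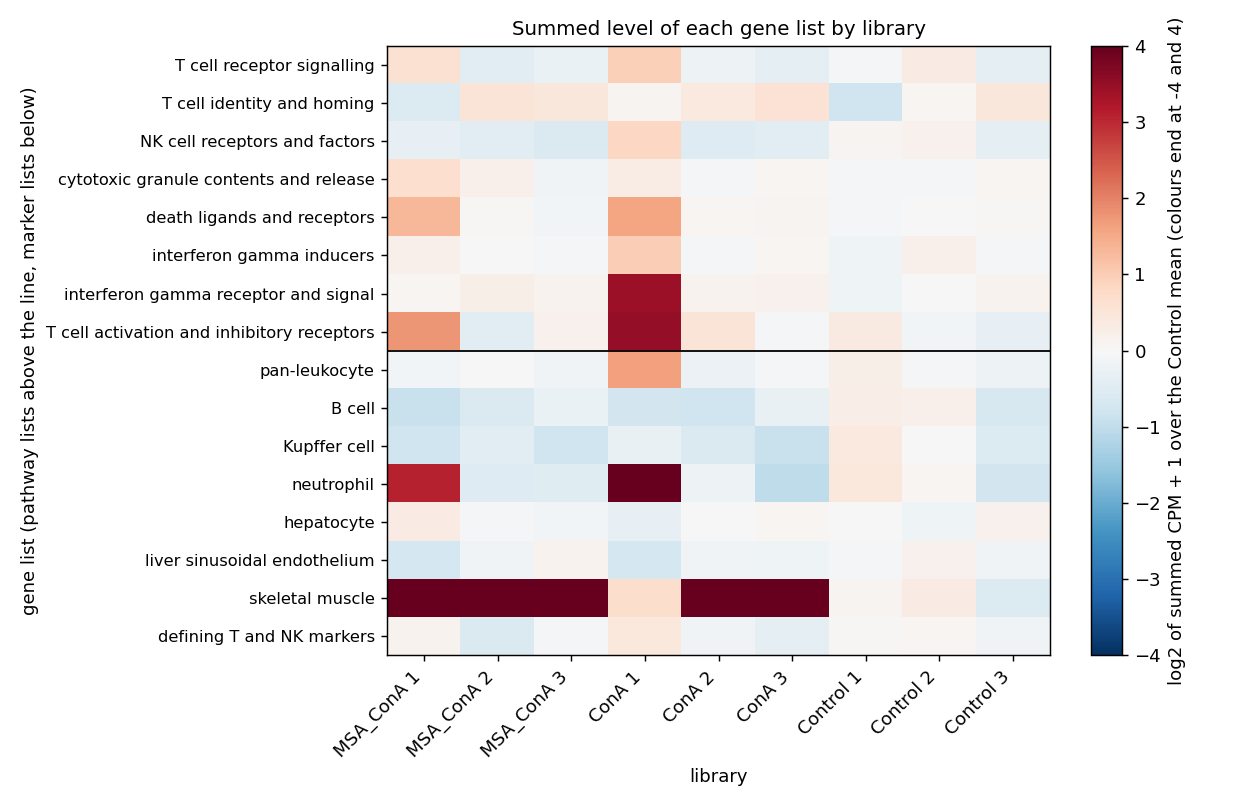
Summed CPM + 1 of each gene list in each library, as a log2 ratio over the mean of the 3 Control libraries; red is higher, blue lower, and colours end at -4 and 4. In ConA 1 the interferon gamma signal list stood at 3.42, the activation list at 3.50 and the neutrophil list at 5.79, while the defining T and NK markers stood at 0.41.

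Among tested genes outside the members, those nearest the mean profile of Gzmb, Gzma, Nkg7 and Cd3e over the 9 libraries were Src, a tyrosine kinase, with a root mean square difference of 0.163 on the centred log2(CPM + 0.5) scale, Gimap5 (0.173), a GTPase of lymphocytes, Fgd3 (0.205), Plekho2 (0.209) and Dact1 (0.243). Src measured 2.24 CPM in MSA_ConA 1, 13.2 CPM in ConA 1 and 3.05 CPM in Control 1. Among the members, Gzma and Gzmb were each other's nearest (0.566), as were Prf1 and Ifng (0.375), and Cd3d and Cd8a (0.371). ConA 1 dominates each of these measures that includes a granule gene.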

How the data were processed

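RNA-seq of 9 mouse livers was analysed. Per the labels' protocols, RNA was extracted with Trizol and libraries were made with an Illumina kit. The authors deposited raw counts per gene and a table of FPKM. Dividing the deposited counts by gene length and by a single effective total for each library gave the deposited FPKM. Bowtie 0.12.2 appears in the submitters' processing notes, as do mm8 and mm10, with no role stated, whereas the tables carry gene identifiers and coordinates of the strain assembly C57BL/6NJ. Aligner settings and strandedness were not given in the sources used here, so reads of overlapping antisense genes cannot be told apart.

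Libraries were grouped by title, 3 per group. The labels do not describe the 3 as technical repeats, and p-values measure the spread between them. The label field for batch repeats the group. The deposited counts were tested by edgeR 4.0.16 quasi-likelihood (R 4.3.3), using TMM factors from 0.571 to 1.26, the default expression filter by group (14603 of 42188 genes kept, 17284 without a count) and Benjamini-Hochberg adjustment over all genes tested, at 0.05. All 9 libraries entered 1 fit. Further fits took the difference of effects between number 1 and numbers 2 and 3, the number class beside the group, and the 6 libraries numbered 2 and 3. SEs were derived from the F statistic. Ratios of single libraries have exact 95% intervals. Scripts were tested on simulated data.

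Also tried were limma-voom (limma 3.58.1), DESeq2 1.42.0, other scalings and filters, only the groups compared, blocks for the library number or number class, limma on log2(FPKM + 1) and log2(FPKM + 0.1), and leaving out each library. The block in the test of the difference (2 residual degrees of freedom) and single-library ratios by library totals were added after the data were seen.

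The members, the gene lists and the split of number 1 from numbers 2 and 3 were chosen with earlier results of these data known. Besides the members, genes were named by a rule: in each list the 3 tested genes of highest mean level and up to 3 with the smallest p among those called in the tests of the difference or of the number class, and the 5 genes with a symbol nearest the mean profile of the tested members. Tnf, Fasl, Ncr1, Xist and Nnt fall outside the rule and were named after their values were seen. Cd244a, Gzmg, Klra4, Klra8, Klra9, Klrc2, Serpina1a, Sh2d1a and Tf were not analysed here. Deviations from group means correlated between libraries of the same number, with r between 0.487 and 0.718 (number 1), between 0.357 and 0.564 (number 2) and between 0.324 and 0.480 (number 3). All exceed the bound of 0.1 set for treating the numbers as pairs. Numbers 2 and 3 also correlated with each other at 0.325 to 0.710, so this check cannot show that libraries of equal number are pairs. Ratios between libraries of equal number follow the labels only. Promoter sequences are from RefSeq (GRCm38.p6), and all 10 members matched by symbol. No coordinates were converted between builds. Some genes of the lists are not reported here.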

Additional observations from a re-analysis of the deposited data

Results flagged for a closer look

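The effect of ConA against Control differed between the libraries numbered 1 and those numbered 2 and 3 for Gzmb, with a log2 difference of 6.23, and for Gzma, with 4.07, in edgeR's test of the difference itself. The effect of MSA_ConA against ConA differed in the same way for Gzmb, with a log2 difference of -12.77, which rests on 0 counts in MSA_ConA 1 and is no bound, and for Gzma, with -6.35. With the library number as a block, Gzma did not pass for ConA against Control (3.93, adjusted p = 0.0541 by edgeR; 0.0119 to 0.0915 over 14 alternatives). In each case 1 library per group is numbered 1. The split by number was chosen with earlier results of these data known. What set the libraries numbered 1 apart was not tested.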

How the results depend on the processing

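All 4 members tested on all 9 libraries stayed short of the threshold in the 3 group comparisons under every alternative run, and leaving out 1 library turned several directions. The ranges of log2 fold change were -0.52 to 4.14 for Gzmb, 0.36 to 3.24 for Gzma, -0.66 to 1.27 for Nkg7 and -0.58 to 0.47 for Cd3e in ConA against Control. For MSA_ConA against ConA they were -4.18 to 0.63, -2.80 to -0.07, -2.05 to -0.10 and -0.34 to 1.21, and for MSA_ConA against Control -0.60 to 0.61, -0.24 to 0.96, -1.03 to -0.39 and -0.14 to 0.99, in the same order of genes. In numbers 2 and 3, Gzma ran from -0.44 to 1.45 and Cd3e from -0.57 to 1.06 for ConA against Control, and Nkg7 from -0.44 to 1.93 and Cd3e from -1.14 to 0.48 for MSA_ConA against ConA. limma-voom gave Nkg7 -0.23 for ConA against Control. For MSA_ConA against Control, Gzmb was -0.40 by limma-voom, -0.033 on log2(FPKM + 1) and -0.49 on log2(FPKM + 0.1). The causes were not tested.

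Counts of genes called moved with DESeq2, to 2 for ConA against Control and 55 for MSA_ConA against Control on all libraries, and to 90, 9 and 1314 in numbers 2 and 3 for ConA against Control, MSA_ConA against ConA and MSA_ConA against Control. With 1 library left out these last 3 counts by edgeR ran from 0 to 19, 0 to 161 and 0 to 507. The difference of effects gave 3068 to 4659 genes for ConA against Control and 1368 to 2649 for MSA_ConA against ConA, where limma-voom gave 1623, and the number class gave 4016 to 8145. Library totals in place of TMM moved the median log2 value of all genes to -0.63, -0.28 and -0.81 in these 3 tests, and the calls to 1325 higher and 4159 lower, 762 and 2044, and 1082 and 5462, against 2284 and 2250, 1257 and 1469, and 2786 and 2807 with TMM. A replicate block for the library number left 0 genes called in each group comparison on all 9 libraries. In the difference of effects, where the block was added after the data were seen, it gave 3623 genes for ConA against Control and 1843 for MSA_ConA against ConA, ended the call of Gzma for ConA (3.93) and changed no other member's call. Depth limits Cd3d, Cd3e, Cd3g, Cd8a, Klrb1c, Prf1 and Ifng, each at 28 counts or fewer in every library. It also limits the others outside ConA 1, where Gzmb had at most 24 counts, Gzma 20 and Nkg7 21.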
